A study of Mus musculus with 20 samples.

Results

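Retinoid metabolism genes were followed in the distal colon (DC) of mice fed the Total Western Diet (TWD) with rising levels of resistant potato starch (RPS). The TWD is a purified rodent diet built to match the nutrient intake of the American population, and RPS is rich in resistant starch. The set held 9 genes of 26619 in the count table. They were Rdh9, Rdh7, Rdh10, Dhrs9, Aldh1a1, Aldh1a2, Aldh1a3, Cyp26b1 and Rarb, found through their Ensembl identifiers. Rdh9 was chosen by its measured rise with RPS dose in these same mice, so its values are given as a description with no test. The others were added because they act in the same pathway, and the question was whether they followed. Of the 9 genes, 8 passed the filter on low counts and Rdh7 did not.

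All mice were C57BL/6, 3 weeks old at the start, and all received the TWD for 6 weeks. For 3 more weeks 5 mice stayed on the TWD alone (0% RPS), 5 received the TWD with 2% RPS, 5 with 5% RPS and 5 with 10% RPS. RNA came from 1 piece of colon near the anal end of each of the 20 mice. Groups followed the diet in the sample descriptions. For 3 mice the treatment field gave another level: mouse RS10_717 stood at 5% in the description and at 2% in the treatment field, mouse RS10_725 at 10% and 5%, and mouse RS10_748 at 2% and 10%.

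Total counts per mouse were 31.3 to 35 M (M, counts in units of 1e+06) at 0% RPS, 24.5 to 31.1 M at 2%, 22.3 to 30.4 M at 5% and 18.4 to 26.6 M at 10%, so depth was highest at 0% and lowest at 10% RPS. Levels are given as CPM (counts per 1e+06 counts) after TMM scaling, which takes out differences in total counts. Markers of the tissue were present. Hox genes of the distal gut summed to 528 to 929 CPM over the 20 mice, with Hoxb13 alone at 379 to 580 CPM. The lowest Hox sum, 528 CPM, was from mouse RS10_721 (5% RPS). At 5% RPS the lowest Hoxd13 value was 54.8 CPM, against 141, 175 and 158 CPM at 0%, 2% and 10%. For Hoxd12 it was 1.94 CPM, against 10.7, 10.6 and 11.6 CPM. For Hoxd11 it was 6.83 CPM, against 21.3, 21.1 and 15.2 CPM. General epithelial markers summed to 8020 to 12200 CPM. Squamous epithelial markers summed to 7.73 to 17.2 CPM, with Trp63, Krt4 and Krt6a below the filter. Pancreatic acinar transcripts summed to 4020 CPM in mouse RS10_721 (5% RPS) and 344 CPM in mouse RS10_784 (10% RPS), against 0.0621 to 9.99 CPM in the other 18 mice. For Rdh9, Rdh16, Dhrs9, the surface colonocyte markers and the pathway trend, results are also given without mice RS10_721 and RS10_784.

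Vitamin A reaches tissues as retinol, bound to carrier proteins. Retinol dehydrogenases of the short-chain family (Rdh and Dhrs genes) oxidize retinol to retinal, retinaldehyde dehydrogenases (Aldh1a genes) oxidize retinal to retinoic acid, and cytochromes of the Cyp26 family break retinoic acid down. Retinoic acid binds nuclear receptors (RAR and RXR), which switch on target genes such as Rarb and Cyp26b1 themselves. In the gut it guides epithelial differentiation and the homing of lymphocytes.

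Rdh9 lies on chromosome 10 at 127612255 to 127628566 on the plus strand (GRCm39), in a run of related short-chain dehydrogenase genes. Rdh16 follows at 127637001 to 127682434 on the same strand, and Rdh7 lies at 127719896 to 127724686 on the minus strand. Dhrs9 stands alone on chromosome 2 at 69210776 to 69234877, plus strand. The 250 bases before the start of the canonical transcript of these 4 genes are printed to show how alike the neighbours are and which receptor hexamers stand there. They were read 5′ to 3′ on the gene's own strand at chr10:127612006-127612255 (Rdh9), chr10:127636751-127637000 (Rdh16), chr10:127724687-127724936 (Rdh7) and chr2:69210526-69210775 (Dhrs9). Capitals mark, on either strand, a receptor hexamer of the kind that retinoic acid receptors and their relatives recognize (spelled AGGTCA or GGGTCA, or else in the variant form GGTTCA or the form AGTTCA), and the TATAAA box.
Rdh9: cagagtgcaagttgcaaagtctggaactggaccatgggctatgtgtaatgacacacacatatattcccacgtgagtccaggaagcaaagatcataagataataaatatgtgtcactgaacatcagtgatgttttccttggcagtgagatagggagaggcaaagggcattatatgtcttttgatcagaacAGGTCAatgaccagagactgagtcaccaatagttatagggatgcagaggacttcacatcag
Rdh16: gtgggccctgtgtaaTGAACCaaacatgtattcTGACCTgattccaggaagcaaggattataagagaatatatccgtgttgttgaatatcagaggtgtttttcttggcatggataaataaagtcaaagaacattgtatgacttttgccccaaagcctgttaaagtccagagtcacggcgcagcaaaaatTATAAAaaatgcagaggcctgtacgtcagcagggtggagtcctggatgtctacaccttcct
Rdh7: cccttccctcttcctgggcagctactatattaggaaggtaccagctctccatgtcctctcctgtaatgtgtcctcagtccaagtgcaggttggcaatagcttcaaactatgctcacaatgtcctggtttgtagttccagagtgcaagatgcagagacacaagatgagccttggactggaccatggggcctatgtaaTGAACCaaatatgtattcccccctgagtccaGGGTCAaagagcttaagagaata
Dhrs9: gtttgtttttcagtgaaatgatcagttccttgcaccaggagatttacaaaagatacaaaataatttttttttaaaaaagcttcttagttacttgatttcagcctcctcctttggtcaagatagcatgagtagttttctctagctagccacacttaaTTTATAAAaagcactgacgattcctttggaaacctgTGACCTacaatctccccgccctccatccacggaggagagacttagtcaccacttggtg

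The Rdh9 window held 1 hexamer, 61 to 56 bases upstream on the plus strand, and no TATAAA. The Rdh16 window held 2 hexamers on the minus strand and a TATAAA 61 to 56 bases upstream. Rdh7 held 2 hexamers and Dhrs9 held 1, with overlapping TATAAA matches on both strands 94 to 87 bases upstream. The hexamer occurred in 37.1% of 17835 windows of this length before protein-coding genes and TATAAA in 9.25%. Of the 9 genes, Aldh1a2 and Rarb had no hexamer in the window. The windows of Rarb, Aldh1a1 and Cyp26b1 lay inside the span of their genes, so sequence before other starts of these genes was not read. No window of the 9 genes or Rdh16 held 2 hexamers in direct repeat with 1, 2 or 5 bases between them. Those arrangements were found in 0.151%, 0.0897% and 0.0561% of all windows. The letters of a window do not show binding. In the best local alignment, 160 of 213 aligned bases (75.1%) were identical between Rdh9 and Rdh16, 81 of 102 (79.4%) between Rdh9 and Rdh7 and 94 of 175 (53.7%) between Rdh9 and Dhrs9.

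Rdh9 encodes a retinol dehydrogenase that acts on cis-retinols. Its CPM were 2.13, 1.58, 3.04, 1.96 and 1.30 in the mice on 0% RPS. At 2% RPS they were 2.33, 2.98, 1.70, 1.5 and 2.82, inside the range of the mice on the TWD alone. At 5% RPS they were 6.15, 5.04, 8.46, 3.41 and 3.13, and at 10% RPS 6.27, 4.46, 6.87, 6.25 and 8.39. By the description label, all 10 mice on 5% or 10% RPS lay above all 5 mice on 0% RPS. Groups that did not overlap were seen for 1.04% of all tested genes at 5% RPS, 2.28% at 10% and 0.24% at 2%, where none of the 9 genes separated. By the description label the step fell between 2% and 5% RPS, and the ranges at 5% and 10% overlapped. The means were 2.00 ± 0.667, 2.27 ± 0.658, 5.24 ± 2.18 and 6.45 ± 1.41 CPM (SD, n = 5 each), a 3.22-fold higher level at 10% RPS (log2 fold change 1.69, SE 0.27) and 2.62-fold at 5%. Counts were small, from 42 to 250 reads per mouse. At the extremes of the fold, leaving out single mice gave log2 fold changes of 1.57 (without mouse RS10_708) and 1.89 (without mouse RS10_704), and leaving out mice RS10_721 and RS10_784 together gave 1.58. With groups taken from the treatment field the log2 fold change was 1.52, and without the 3 mice whose labels disagree it was 1.71. By the treatment field mouse RS10_748 (2.82 CPM) stood at 10% RPS, inside the 0% range, so that dose did not separate. Mouse RS10_717 (6.15 CPM) then stood at 2% RPS.

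**Figure D1:**
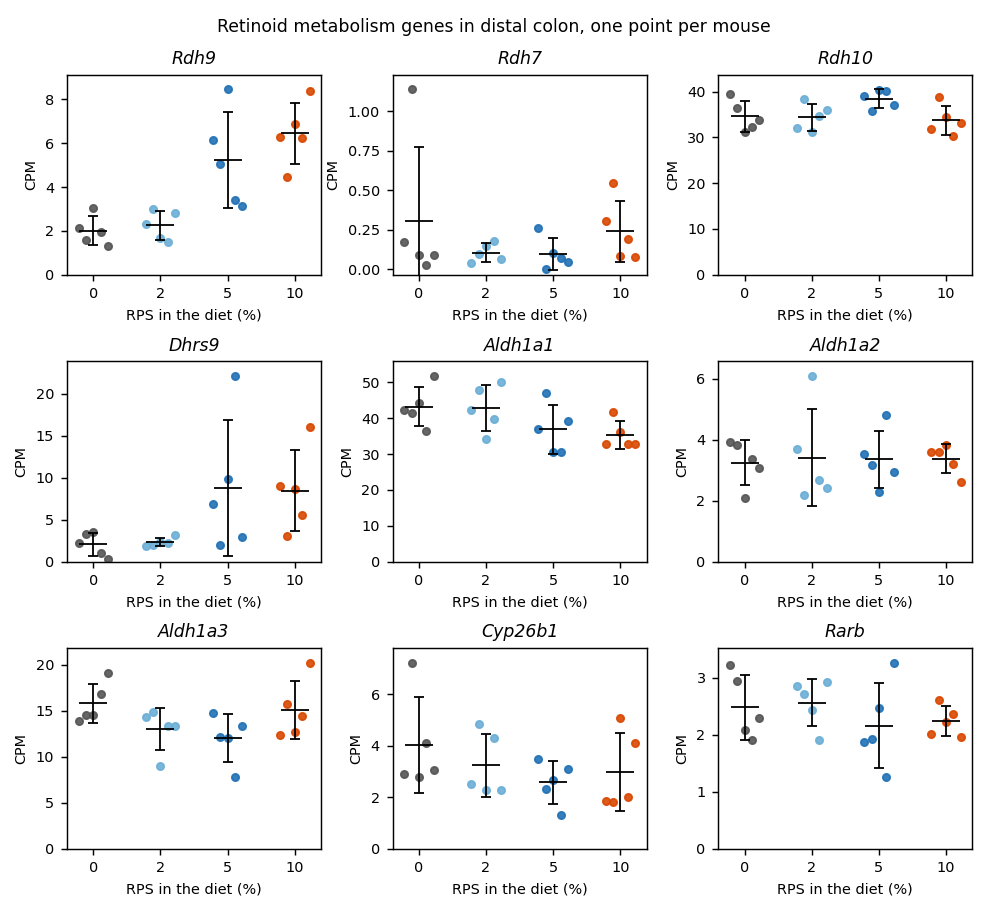
CPM of the 9 genes (y axis, linear) against RPS in the diet (x axis, %), 1 point per mouse, with the mean and SD of 5 mice as a bar. Rdh9 separated at 5% and 10% RPS, Dhrs9 rose in some mice, and the other panels overlapped across diets.

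Reads that cannot be told apart from those of neighbouring genes bear on the Rdh9 count. Of 3626 stretches of 50 bases (the read length) in its transcripts, 67.5% also occur in another gene. Stretches shared with Rdh16f1, a gene model that overlaps Rdh9 on the same strand, made up 65.8% of the 3626. Rdh16f1 held 0 to 7 counts per mouse. Rdh16 shares 10.8% of the Rdh9 stretches and was far more abundant. How reads with several matches were counted is not given in the sources used here. Rdh9 counts per 1000 Rdh16 counts ranged from 11 to 19.9 at 0% RPS, 10 to 19.6 at 2%, 16.5 to 34 at 5% and 24.9 to 39.2 at 10%. The part of Rdh16 reads in the Rdh9 count was not tested.

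Rdh16 is not one of the 9 genes, but as the abundant neighbour it had the largest fold change of the tested genes of the cluster after Rdh9. It encodes a retinol and hydroxysteroid dehydrogenase. Its CPM were 139, 107, 153, 135 and 118 at 0% RPS and 164, 179, 221, 160 and 243 at 10% RPS. By the description label every mouse on 10% RPS lay above every mouse on the TWD alone. That separation from the controls was seen for 2.28% of all tested genes, in either direction. By the treatment field mouse RS10_748 (144 CPM) stood at 10% RPS, inside the 0% range. The rise was 1.48-fold (log2 fold change 0.57, SE 0.18), under the 1.5-fold threshold, with adjusted p = 0.148 by edgeR and 0.0426 by DESeq2. Without mouse RS10_784, which held the 243 CPM, or without both mice with pancreatic transcripts, the log2 fold change was 0.47 (adjusted p = 0.245 without both). At 5% RPS the rise was 1.45-fold, with values from 120 to 283 CPM that overlapped the 0% group. The slope over dose had adjusted p = 0.0711 by edgeR and 0.0142 by DESeq2. The other genes of the cluster did not pass. Their log2 fold changes at 10% RPS were 0.39 (SE 0.25) for Rdh19 and 0.03 (SE 0.19) for Rdh16f2, and Rdh1 and Rdh16f1 were below the filter at 19 and 7 counts at most.

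**Figure D2:**
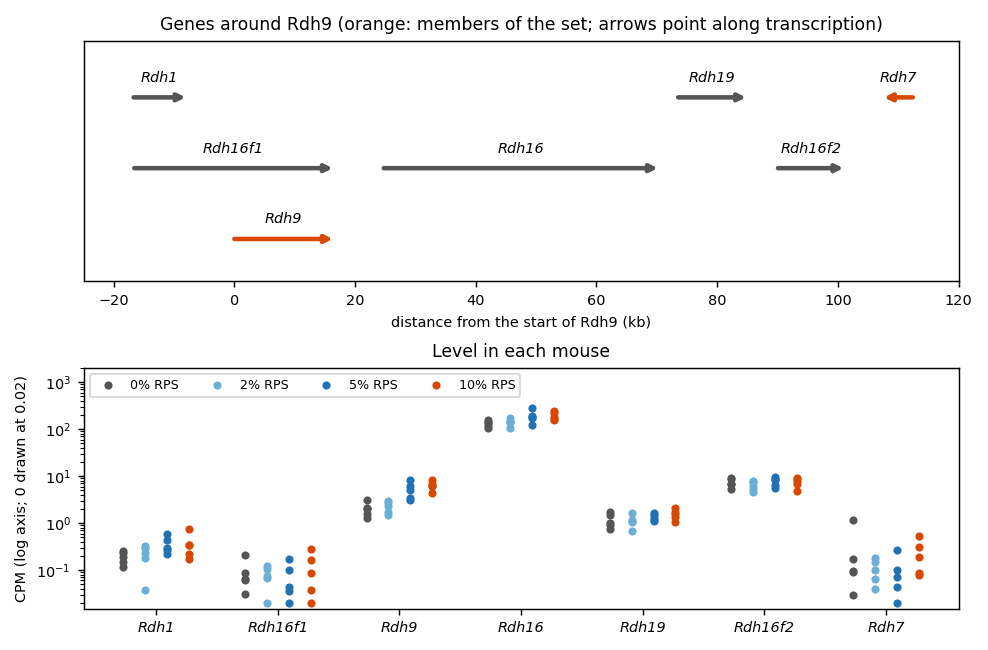
Top, genes around Rdh9 by distance from its start (x axis, kb), with arrows along transcription and members of the set in orange. Bottom, CPM of each gene in each mouse (log axis, 0 drawn at 0.02), in which Rdh16 stood above all its neighbours and Rdh9 separated by diet.

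Rdh7 was barely detected. It held 6, 36, 3, 1 and 3 counts at 0% RPS, 1 to 5 at 2%, 0 to 8 at 5% and 2 to 10 at 10%. With 3 counts as the limit that a count of 0 allows, most mice stood at or near the floor, and no difference was detectable at this depth. The 36 counts came from mouse RS10_703 alone. Rdh10, the enzyme that supplies most retinal in the embryo, lay at 31.2 to 39.4 CPM on the TWD alone and 30.3 to 38.8 CPM at 10% RPS. Its log2 fold change at 10% RPS was -0.04 (SE 0.08, adjusted p = 0.862), the most precise value of the set, and its 5% group (35.7 to 40.4 CPM) lay 0.15 higher on the log2 scale (SE 0.08, adjusted p = 0.587).

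Dhrs9, a retinol dehydrogenase of differentiated epithelia that also acts on steroids, had CPM of 2.21, 3.26, 3.48, 1.01 and 0.301 at 0% RPS and 1.89, 2.02, 2.32, 2.22 and 3.18 at 2%. At 5% RPS the mice gave 6.87, 2.02, 9.91, 22.1 and 2.99, and at 10% RPS 9.05, 3.10, 8.70, 5.51 and 16. Of the mice on 10% RPS, 4 of 5 lay above the highest 0% mouse, as did 3 of 5 on 5% RPS, and the groups overlapped through mice RS10_727, RS10_718 and RS10_724. The mean was 4.14-fold higher at 10% RPS (log2 fold change 2.05, SE 0.63) and 4.29-fold at 5% (2.10, SE 0.63). Neither passed by edgeR (adjusted p = 0.145 and 0.349), and the slope had adjusted p = 0.0799 by edgeR and 0.0105 by DESeq2, with a call by limma-voom too. By edgeR the slope was called in 2 of 20 fits that left out 1 mouse, those without mouse RS10_721 and without mouse RS10_727. DESeq2 called Dhrs9 at 10% RPS (adjusted p = 0.0406), where that tool called 1.25% of genes with an adjusted p. Dhrs9 was picked with results from these samples known, so this is not independent evidence of its direction. The highest value, 22.1 CPM, was from mouse RS10_721, and the next, 16 CPM, from mouse RS10_784, the mice with pancreatic transcripts. Without both, the log2 fold change at 10% RPS was 1.69 (adjusted p = 0.25).

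At 10% RPS edgeR called 1 of the 8 tested genes, against 0.0391% of 17893 tested genes, at adjusted p of 0.05 or less and 1.5-fold or more. That gene was Rdh9, which was chosen on this contrast, so nothing is read from it. Of the other 7, 0 were called at 10% RPS, where 2 had an unadjusted p under 0.05 (Dhrs9 up and Aldh1a1 down) against 15.2% of all tested genes, and DESeq2 called 1, Dhrs9. At 5% and at 2% RPS edgeR called 0 of the 8, as it did 0% of all tested genes. DESeq2 called 0 of the other 7 at 5%, against 0.195% of genes with an adjusted p, and 0 of the 8 at 2%, against 0.00386%. The trend over dose was a slope per 1% RPS, tested with no fold threshold. It was called by edgeR for 0 of the other 7, against 2.1% of all tested genes. Rdh9 was called by that trend and by DESeq2 at 5% RPS, and nothing is read from these calls either. DESeq2 and limma-voom each called the trend of 1 of the other 7, Dhrs9. Over all genes DESeq2 called 5.6% of those with an adjusted p, and the limma-voom count was within 1.5 times that of edgeR. The median log2 fold change of the 7 genes at 10% RPS was -0.07, and that of all tested genes was -0.015.

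None of the 3 enzymes of the set that turn retinal into retinoic acid was called at any dose or by trend, by edgeR or DESeq2. Over all genes edgeR called 0.0391% at 10% RPS and 2.1% by trend, and DESeq2 1.25% and 5.6%. So few calls are made that none among 3 genes says little about them. Aldh1a1, the most abundant of them per kilobase, had 42.4, 41.5, 44.1, 36.5 and 51.7 CPM at 0% RPS and 32.9, 41.8, 36.1, 32.8 and 32.7 CPM at 10%. At 10% RPS 4 of 5 mice lay below the lowest 0% mouse, and mouse RS10_727 (41.8 CPM) lay inside the 0% range. The log2 fold change was -0.30 (SE 0.12), with adjusted p = 0.251 at 10% RPS and 0.114 for the slope, which was called in 1 of 20 fits that left out 1 mouse, the one without mouse RS10_727. Aldh1a2, the enzyme of stromal and dendritic cells, ranged from 2.08 to 3.94 CPM on the TWD alone and from 2.63 to 3.84 CPM at 10% RPS (log2 fold change 0.05, SE 0.25, adjusted p = 0.946). Aldh1a3 ranged from 13.9 to 19.1 CPM on the TWD alone and from 12.4 to 20.2 CPM at 10% RPS (-0.07, SE 0.16, adjusted p = 0.89). Without mouse RS10_784, which held the 20.2 CPM, the log2 fold change of Aldh1a3 was -0.19. At 5% RPS, however, 4 of 5 mice lay below all 0% mice for Aldh1a3, with a log2 fold change of -0.39 (SE 0.16, adjusted p = 0.477). The sign at 10% RPS turned for Aldh1a2 without mouse RS10_704 (-0.07) and for Aldh1a3 without mouse RS10_708 (0.01).

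Cyp26b1, which breaks down retinoic acid and is itself induced by it, had 2.89, 7.21, 2.80, 4.11 and 3.04 CPM at 0% RPS and 1.83, 1.80, 5.08, 2.02 and 4.12 CPM at 10%. At 10% RPS 3 of 5 mice lay below and 2 of 5 inside the 0% range. The log2 fold change was -0.43 (SE 0.35, adjusted p = 0.595), and leaving out single mice gave -0.10 (without mouse RS10_703, which held the 7.21 CPM) to -0.71 (without mouse RS10_729, which held the 5.08 CPM). Rarb, a receptor gene that retinoic acid induces, ranged from 1.90 to 3.23 CPM on the TWD alone and from 1.96 to 2.61 CPM at 10% RPS (-0.16, SE 0.21, adjusted p = 0.773). Of the Rarb stretches of 50 bases, 26.2% also lie in the neighbouring gene Top2b. Neither gene passed at any dose by edgeR or DESeq2, where at 10% RPS 0.0391% and 1.25% of all genes passed.

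Per kilobase of exon at 0% RPS, Rdh10 stood highest of the 9 genes at 7.52 CPM per kb (6.78 to 8.56 over mice). Aldh1a1 followed at 4.02 (3.40 to 4.81) and Aldh1a3 at 2.77 (2.43 to 3.35), and these 3 ranges did not overlap. Aldh1a2 at 0.705, Cyp26b1 at 0.704, Rdh9 at 0.558, Dhrs9 at 0.478 and Rarb at 0.298 CPM per kb overlapped with their neighbours in that order. Rdh7 was lowest at 0.131. Outside the set, Adh1, a cytosolic alcohol dehydrogenase that also oxidizes retinol, stood at 378 CPM per kb and Rdh16 at 19.4. Over all 20 mice the level of Rdh9 was 1.11 CPM per kb, against 24.4 for Rdh16 and 336 for Adh1.

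The wider pathway was described through 8 lists of 68 genes in all, of which 64 were in the table and 54 were tested. Rdh8, Cyp26c1, Lrp2 and Hoxb1 were not analysed here, and 10 genes fell below the filter. At 10% RPS edgeR called Rdh9, which was chosen on its rise, and 0 of the other 53, against 0.0391% of all tested genes. DESeq2 called Rdh9 and 2 of the other 53, Dhrs9 and Cyp2w1, against 1.25% of genes with an adjusted p. Of the 53 other than Rdh9, 2 were higher and 8 lower at an unadjusted p under 0.05 at 10% RPS, or 18.9% against 15.2% of all tested genes. By edgeR the trend called 4 genes, of which Rdh9 was chosen for its rise with dose. The others, Cyp2w1, Stra6l and Ttr, were down, or 3 of 53 against 2.1% of all tested genes. DESeq2 called 8, adding Dhrs9, Rdh16, Rbp4 and Rarg, against 5.6% of genes with an adjusted p. On a log2 dose scale edgeR called 1, Rdh9. The edgeR count, with Rdh9 in it, was 1 without mouse RS10_731 or mouse RS10_784 and 10 without mouse RS10_727. It was 2 without mouse RS10_701, RS10_708, RS10_709, RS10_716 or RS10_729. It was 0 with groups from the treatment field and 1, Rdh9, without the 3 mice whose labels disagree. At an unadjusted p under 0.05 the slope was up in 2 and down in 9 of the 53, or 20.8% against 19.1% of all tested genes, and their median log2 fold change at 10% RPS was -0.13.

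Among the 18 tested retinol dehydrogenases and retinal reductases, 8 were higher and 10 lower at 10% RPS. Rdh9, Dhrs9 and Rdh16 gave the 3 highest values, and Dhrs4, a retinal reductase, was lower (log2 fold change -0.20, SE 0.10, adjusted p = 0.329). Adh1 had a log2 fold change of -0.33 (SE 0.19, adjusted p = 0.415). Of 6 retinal dehydrogenases and oxidases 1 was higher and 5 were lower, with 0 called by edgeR, against 0.0391% of all tested genes.

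Cyp2w1, a cytochrome of the fetal gut and of colon tumours that oxidizes retinoids, was lower at 10% RPS. Its CPM were 4.76, 4.08, 3.32, 7.05 and 7.53 at 0% RPS and 2.09, 2.39, 2.39, 1.55 and 2.27 at 10%, with no overlap, as for 2.28% of all tested genes. The log2 fold change at 10% RPS was -1.32 (SE 0.32, edgeR adjusted p = 0.083, DESeq2 adjusted p = 0.00486), and the slope had adjusted p = 0.0374 by edgeR. At 2% and 5% RPS the log2 fold changes were -0.03 and -0.18 (SE 0.30 for each), so the difference was seen at the top dose. The slope was called in 10 of 20 fits that left out 1 mouse and was not called on a log2 dose scale.

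Of 9 tested genes of retinoid uptake, binding and transport, 6 were lower and 3 higher at 10% RPS, with a median log2 fold change of -0.35. At that dose edgeR called 0, against 0.0391% of all tested genes. By trend it called 2 as falling, against 2.1%. Stra6l, a membrane receptor for retinol-binding protein, had 13.7, 18, 9.51, 18.4 and 18.7 CPM at 0% RPS and 11.9, 11.3, 11.3, 9.01 and 8.75 at 10%, where 4 of 5 control mice lay above all mice on 10% RPS. Its log2 fold change was -0.58 (SE 0.14, adjusted p = 0.0833) and its slope fell by 0.063 log2 units per 1% RPS (SE 0.013, adjusted p = 0.0191). Ttr, the plasma carrier of retinol-binding protein and thyroxine, fell with dose from 60.2 to 82.0 CPM at 0% RPS to 49.1 to 61.6 CPM at 10% (log2 fold change -0.35, SE 0.11; slope adjusted p = 0.0476). Rbp4, retinol-binding protein itself, went from 8.92 to 16.4 CPM to 6.69 to 9.90 CPM (-0.54, SE 0.16), and its slope had adjusted p = 0.0529 by edgeR and 0.0171 by DESeq2, with a call in 5 of 20 edgeR fits that left out 1 mouse. Rbp7, which holds retinol inside cells, did not pass (-0.60, SE 0.22, slope adjusted p = 0.107). The Stra6l slope was called in 18 of 20 fits that left out 1 mouse, that of Ttr in 6 of 20. Without mice RS10_721 and RS10_784 the trend called only Rdh9 of the pathway.

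**Figure D3:**
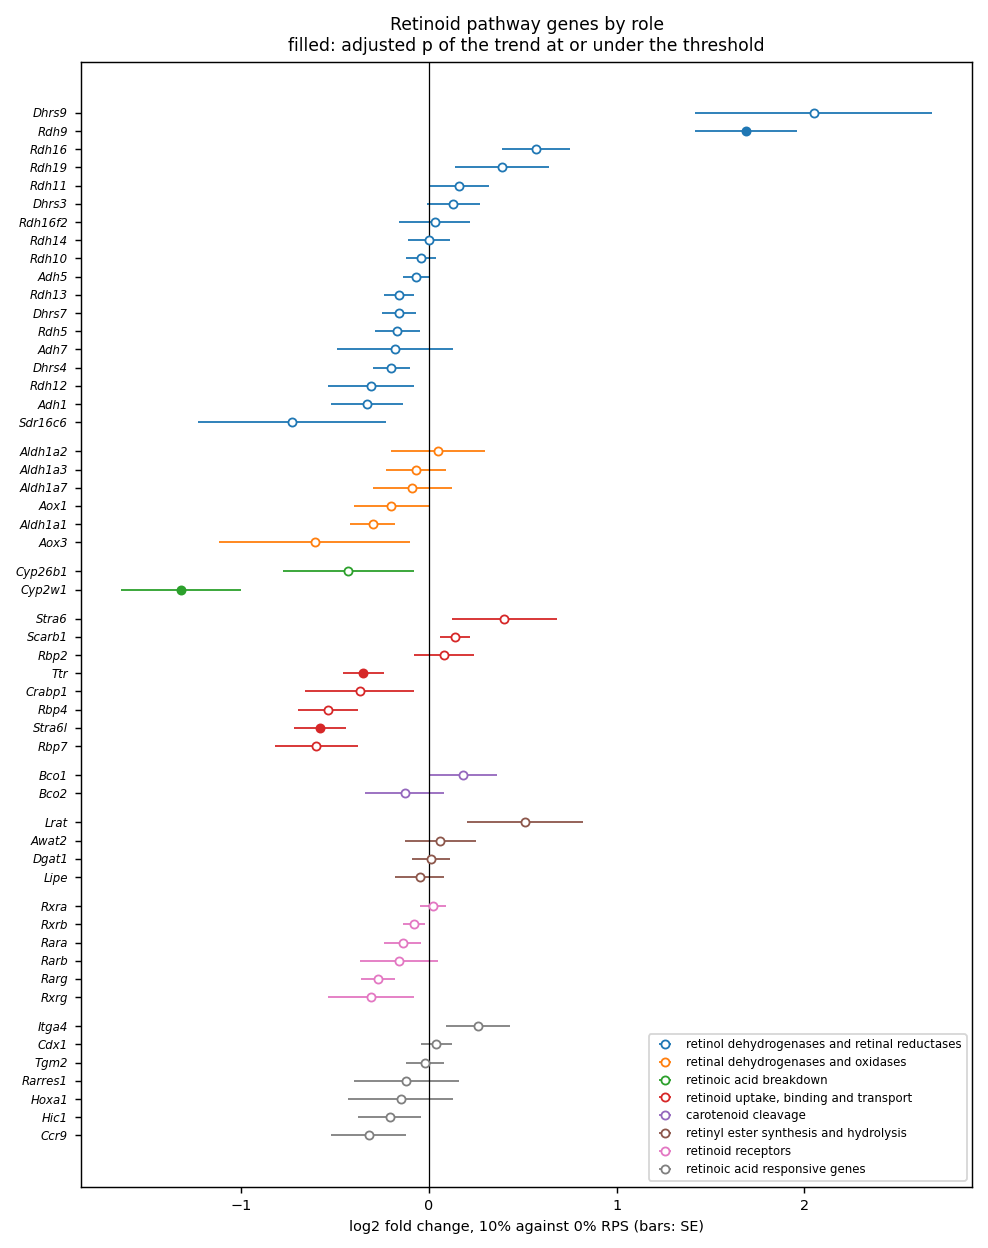
log2 fold change at 10% against 0% RPS (x axis) with its SE for 53 of the 54 tested pathway genes, grouped by role, with filled points for the 4 genes whose trend edgeR called. Rdh9 and Dhrs9 stood to the right at 1.69 and 2.05, and Cyp2w1 to the left at -1.32.

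Of 17 genes listed as answering to retinoic acid, 13 were tested. EdgeR called 0 at 10% RPS and 0 by trend, against 0.0391% and 2.1% of all tested genes. At 10% RPS DESeq2 called 0, against 1.25% of genes with an adjusted p. At that dose 0 had an unadjusted p under 0.05 by edgeR, against 15.2% of all tested genes. By trend 1 fell at that limit, or 7.69% against 19.1%. The median log2 fold change of the 13 at 10% RPS was -0.12. Dhrs3, which turns retinal back into retinol and is a direct target, had a log2 fold change of 0.13 (SE 0.14). Cdx1 (0.04, SE 0.08) and Tgm2 (-0.02, SE 0.10), both well expressed, gave close values. Of the 6 receptor genes edgeR called 0 at 10% RPS and 0 by trend. DESeq2 called 1 by trend, against 5.6% of genes with an adjusted p, and that gene was Rarg. It had 22.5 to 26.7 CPM on the TWD alone and 17.0 to 23.0 CPM at 10% RPS (-0.27, SE 0.09, slope adjusted p = 0.0687 by edgeR and 0.0355 by DESeq2).

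Most markers of surface colonocytes, the differentiated cells at the top of the crypt, were higher where Rdh9 and Dhrs9 were. Their 9 genes summed to 3550 to 4440 CPM at 0% RPS, 3640 to 4330 at 2%, 4060 to 6120 at 5% and 5580 to 6570 at 10%. Without mice RS10_721 and RS10_784, which held the highest sums of their diets, the upper ends were 5230 and 6350. By edgeR the trend called 7 of the 9 as rising (Krt20, Car4, Slc26a3, Aqp8, Ceacam20, Slc9a3 and Tmigd1), against 2.1% of all tested genes, and the list's median log2 fold change was 0.68 at the top dose. Without those mice it called 2, Car4 and Slc26a3, against 0.332% of all genes tested then, with the same median. Mep1a, a brush border protease of the list, was lower at 10% RPS (log2 fold change -0.21, SE 0.09, adjusted p = 0.281), with a Spearman rho of log2 CPM over the 20 mice of -0.53 with Rdh9 and -0.65 with Dhrs9. Slc26a3, a chloride exchanger, had rho of 0.50 with Rdh9 and 0.28 with Dhrs9, and -0.25 and -0.33 after each diet's mean was taken out. General epithelial markers had a median of 0.22, crypt base and cycling markers 0.00, goblet cell markers 0.25, smooth muscle -0.03 and fibroblasts 0.02. Dendritic cell and macrophage markers had a median of 0.00, with 3 of 7 higher and 4 lower. The macrophage genes Cd68 (-0.60, adjusted p = 0.103 by edgeR and 0.0318 by DESeq2), Adgre1 (-0.40) and Csf1r (-0.31) were lower. Of the dendritic cell genes Xcr1 (0.52), Clec9a (0.08) and Flt3 (0.03) were higher, and Itgax stood at 0.00. Adipocyte markers had a median of 0.46 (5 of 5 higher, 0 called), genes driven by the circadian clock -0.41 (8 of 8 lower, 0 called) and distal Hox genes -0.11 (5 of 5 tested lower, with Hoxb13 called as falling by trend). Plasma cell markers had a median of 1.10 (5 of 5 higher, with Tnfrsf17 called as rising by trend). They summed to 271 to 801 CPM at 0% and 553 to 936 CPM at 10% RPS. At 10% RPS DESeq2 called 1 gene each of the plasma cell, general epithelial and goblet lists, against 1.25% of genes with an adjusted p. These were Tnfrsf17 (log2 fold change 1.22, SE 0.34), Cdx2 (1.44, SE 0.44) and Clca1 (0.75, SE 0.25), all higher. The part of these lists in the Rdh9 and Dhrs9 values was not tested. In whole tissue, more cells of a type and more RNA per cell cannot be told apart.

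The genes most like Rdh9 across the 20 mice, by Spearman rho of log2 CPM among 15231 genes of at least 1 CPM, were St14 (0.93), Gda (0.91), Osbpl3 (0.91), Prr13 (0.90) and Trim31 (0.90). St14 encodes matriptase, a membrane serine protease of epithelia. After each diet's mean was taken out, their rho was 0.81, 0.72, 0.83, 0.80 and 0.75. Rdh16 ranked 41 (0.82, and 0.68 within diets), Car4 ranked 12 (0.86, and 0.52) and Dhrs9 ranked 162 (0.73, and 0.46). Dhrs9 was most like Krt20, a keratin of surface colonocytes (0.92, and 0.91 within diets, and 0.90 over the mice other than RS10_721 and RS10_784), followed by Syt12, 4732465J04Rik, Clca4a and Hif1a (0.91 to 0.90). The points share their diets and their libraries, so these values are a description. Over the 20 mice, rho with Rdh9 was -0.56 for Aldh1a1 (-0.02 within diets), -0.14 for Aldh1a2 (-0.41), -0.17 for Aldh1a3 (0.12), -0.22 for Cyp26b1 (0.21) and -0.22 for Rarb (0.05).

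**Figure D4:**
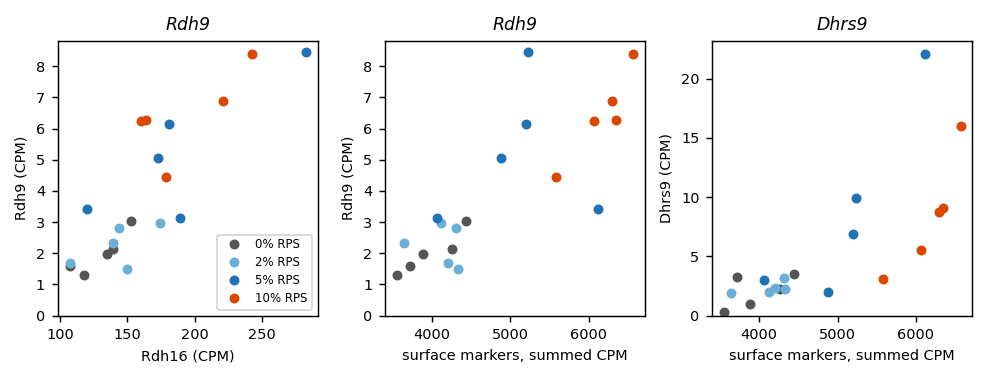
Rdh9 CPM against Rdh16 CPM (left), and Rdh9 (middle) and Dhrs9 (right) CPM against the summed CPM of 9 surface colonocyte markers, 1 point per mouse and coloured by diet. By the description label, mice on 10% RPS lay at 5580 to 6570 summed CPM, above all mice on 0% RPS (3550 to 4440). The highest Dhrs9 value (22.1) was from mouse RS10_721.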

How the data were processed

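Per the labels and the study's methods, RNA from the DC of 20 mice was made into stranded mRNA libraries and read as single 50 base reads. In CLC Genomics Workbench the authors trimmed poor bases and mapped to GRCm39. The deposited values are raw counts per gene and mouse. The annotation release, strand setting and treatment of reads with several matches are not given in the sources used here.

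Gene symbols came from GENCODE vM39, which held 26338 of 26619 identifiers. Counts were tested with edgeR 4.0.16 (R 4.3.3) by its robust quasi-likelihood F-test, after filterByExpr with a minimum count of 10 (17893 genes left) and TMM scaling, with all 4 diets in 1 fit. P-values were adjusted by Benjamini-Hochberg over all tested genes, and by DESeq2 over the genes to which it gave an adjusted p. Calls needed an adjusted p of 0.05 or less and 1.5-fold or more, and a trend an adjusted p of 0.05 or less. DESeq2 1.42.0 and limma-voom 3.58.1 were alternatives, and the edgeR steps were tested on simulated data. SE is the log2 fold change divided by the square root of F. Levels per kb use the merged exons of a gene. Any 2 mice of a diet differed by more than counting noise (chi-square per degree of freedom 9.1 to 62.9 over 40 pairs). Sequences came from the GRCm39 genome and were aligned with Biopython 1.88.

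The members and lists were chosen with earlier results of these data known. Named genes were the 9 members, each listed pathway gene with an unadjusted p under 0.05 at 10% RPS or by trend, the 5 genes most like Rdh9 and Dhrs9, and genes named for context after their values were seen. Of the listed pathway genes, 1 is counted but not reported by name here. Mouse numbers are not shared between diets, so no pairing was used.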

Additional observations from a re-analysis of the deposited data

Results flagged for a closer look

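Each of 17 named genes was looked at in each diet for 1 mouse that lay far from the other 4, by the gap to its nearest neighbour as a share of the range. Of 68 groups 4 passed, where chance gives about 3.4. Rdh7 stood at 1.14 CPM in mouse RS10_703 on 0% RPS, and the next mouse at 0.17 CPM. Aldh1a3 was low in mouse RS10_715 on 2% RPS, at 9.04 CPM against 13.3 CPM in the next mouse. Dhrs4 was low in mouse RS10_721 on 5% RPS, at 40.1 CPM against 47.9 CPM. Rbp7 was low in mouse RS10_707 on 0% RPS, at 2.71 CPM against 3.64 CPM.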

How the results depend on the processing

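No paired analysis was possible because no mouse number is shared between diets. The main counts of called genes were 7 at 10% RPS, 0 at 5%, 0 at 2% and 375 by trend, of which the retinoid pathway held 1 at 10% and 4 by trend. DESeq2 gave 211, 29, 1 and 973, with 3 and 8 pathway genes. RLE scaling gave 13 at 10% RPS. With groups from the treatment field, 0 genes passed at 10% and 0 by trend, with 0 and 0 of the pathway. Without the 3 mice whose labels disagree, 0 passed at 10% and 56 by trend, with 0 and 1 of the pathway. With only the 2 diets compared, 3 passed at 10% and 1 at 5%. A log2 dose scale gave 127 by trend, 1 of the pathway. Without mice RS10_721 and RS10_784, chosen after seeing the data, 60 passed by trend, 1 of the pathway. limma-voom and no filter on low counts kept each count within 1.5 times.

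When each mouse was left out in turn, calls ranged from 5 to 188 at 10% RPS, 0 to 1 at 5%, 0 to 0 at 2% and 24 to 1148 by trend, the extremes of the first and last being without mouse RS10_784 and without mouse RS10_727. Pathway genes called at 10% RPS ranged from 1 to 3, with 2 without mouse RS10_703 and 3 without mouse RS10_704 or mouse RS10_727. By trend they ranged from 1 to 10, with 1 without mouse RS10_731 or RS10_784, 2 without mouse RS10_701, RS10_708, RS10_709, RS10_716 or RS10_729, and 10 without mouse RS10_727. The Rdh9 log2 fold change at 10% RPS, a description, was 1.52 under the treatment field and 1.71 without the 3 mice whose labels disagree. Dhrs9 kept its direction in 28 of 28 alternatives and gained a call with DESeq2. Signs turned for Rdh10 without mouse RS10_701 (0.01, lowest single-mouse value -0.09), Aldh1a2 under the treatment field (-0.06) and without mouse RS10_704 (-0.07, highest 0.13), and Aldh1a3 without the 3 mice (0.01) and without mouse RS10_708 (0.01, lowest -0.19). The cause was not tested. Of the 9 genes depth limits Rdh7 most, at 0 to 36 counts per mouse.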
